A study of Mus musculus with 9 samples.

Results

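Trigeminal neurons that carried Calca, which encodes the peptide CGRP, together with at least 2 genes of a set made up of Fam150b, Ptger1, Vat1l, Capn5, Flrt1, Tmem233 and Ly86 were examined as a group. A barcode of the single-cell table was taken when it held 500 to 7500 genes and at least 3 of the neuronal genes Tubb3, Scn9a, Snap25, Nefl, Nefm and Uchl1. It also had to hold no Epcam transcript, 5 or more Calca transcripts, and fewer genes of an opposing set (Mfap5, Gpr83, Lpar1, Trpa1 and Fgg) than of the set of 7. Finally, Nefh had to be under 5 transcripts or Trpv1 had to be seen, where "seen" means at least 1 unique transcript (UMI) in the cell. The rule took 552 of the 1610 neurons with 5 or more Calca UMIs (34.3%, 32.0 to 36.7), which was 14.3% of 3855 neurons and 7.89% of the 6997 barcodes. Because these transcripts chose the cells, their levels are given below as a description, without a test.

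The cells were trigeminal cells of FVB/N wild-type mice aged 3 to 6 weeks by the labels, with many mice of both sexes pooled in each of 9 Drop-seq runs, a droplet method in which 1 bead barcode stands for 1 cell. Ganglia were dissociated, passed over a Percoll gradient and depleted of glia and other non-neuronal cells, and the labels name no treatment. Barcodes carried no name of their run, so all cells formed 1 pooled sample: no replicate error could be given and no p-value was computed between groups of cells. Parentheses after a share hold the exact binomial 95% interval, those after a level in UMIs per 1000000 UMIs of the group (CPM) the exact Poisson 95% interval, and those after a log2 ratio the exact conditional binomial 95% interval, all of which cover counting error only.

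CGRP is a vasodilator peptide released from the endings of nociceptors, including those that supply the face, the teeth and the coverings of the brain. Fam150b (also named Alkal2) encodes a ligand of the receptor tyrosine kinase ALK, Ptger1 encodes the prostaglandin E2 receptor EP1, and Trpv1 encodes the channel opened by noxious heat and capsaicin. Capn5 encodes a calpain protease, Flrt1 a leucine-rich repeat membrane protein, Tmem233 a small membrane protein and Ly86 the protein MD-1, which pairs with the Toll-like receptor homologue RP105.

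The chosen neurons were deeper than most neurons they were set against. Their median was 5123.5 UMIs, with a range of 1012 to 44974, and they held 4282695 UMIs together. The other 1058 neurons with 5 or more Calca UMIs were split by the same genes into 281 Trpa1/Mfap5 CGRP neurons (2 or more of the opposing set, and at least as many of it as of the set of 7; median 3387 UMIs), 135 large CGRP neurons (Nefh 5 or more with no Trpv1 UMI; median 8634) and 642 remaining CGRP neurons (median 2117.5). Another 2245 neurons had fewer than 5 Calca UMIs (median 2808). A deeper cell shows more genes, so shares of cells are also given after each cell was thinned at random to 1000 UMIs, and shares in 249 glia (median 1513 UMIs) stand beside them. These glia were shallower and were chosen for at most 1 neuronal gene, which holds free neuronal RNA low in them, so their shares are only a lower guide to the background. Among the chosen barcodes, 44 of 552 ended in an unread base, 13 shared their first 11 bases with another barcode and 3 were barcodes listed more than once; 499 of the chosen neurons were free of all 3.

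Few of the chosen neurons carried the gene pair Fam150b and Ptger1. Both were seen in 38 of 552 (6.88%), either was seen in 253 (45.8%), and neither was seen in 299 (54.2%), whereas Tmem233 or Ly86 was seen in 400 (72.5%). In those 299 neurons the set of 7 was met by Vat1l, Capn5, Flrt1, Tmem233 and Ly86 alone. Exactly 2 of the 7 genes were seen in 185 neurons, 3 in 180, 4 in 105, 5 in 50, 6 in 20 and all 7 in 12. No opposing gene was seen in 260 of the 552 and 1 was seen in 183.

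Fam150b, the ALK ligand gene, was at 48.8 (42.4 to 55.9) CPM in the chosen neurons, against 28 in Trpa1/Mfap5, 16 in large and 5.86 in remaining CGRP neurons. A Fam150b UMI was seen in 19.9% (16.7 to 23.5) of the chosen neurons, or 4.71% at 1000 UMIs, against 1.13% of the other CGRP neurons at 1000 UMIs and 0% (0 to 1.47) of glia without thinning. Ptger1, the EP1 receptor gene, was at 62.6 (55.3 to 70.5) CPM and at the same level in Trpa1/Mfap5 neurons (62.5), with 14.3 in large and 25.6 in remaining neurons. Since Ptger1 helped to choose the cells, these levels are a description.

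Ptger1 was seen in 32.8% (28.9 to 36.9) of the chosen neurons (10.3% at 1000 UMIs, against 3.69% of other CGRP neurons and 1.2% of glia without thinning). Vat1l, a relative of the synaptic vesicle protein VAT-1, was at 124 (114 to 135) CPM against 58.9, 104 and 28.8 in Trpa1/Mfap5, large and remaining neurons. Capn5 was at 189 (177 to 203) CPM, near its 175 in Trpa1/Mfap5 and 167 in large neurons and above its 49 in remaining neurons. Capn5 and Vat1l were thus also well represented among the large neurons, in which Fam150b and Ptger1 were low.

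Flrt1 was at 110.2 (100.5 to 121) CPM, against 78.3 in Trpa1/Mfap5, 72.5 in remaining and 16.5 in large neurons. Tmem233 was at 859 (832 to 887) CPM in the chosen neurons and as high in large neurons (906), with 231 in Trpa1/Mfap5 and 13.3 in remaining neurons. Ly86 was at 578 (556 to 601) CPM and reached 704 in large neurons, with 165 and 15.5 in the other two groups. For Tmem233 and Ly86 the large neurons were at or above the chosen ones. Since 101 of the 135 large neurons were kept out by Nefh and Trpv1 alone, they are no clean contrast for genes of the set. Levels of 524 and 259.8 CPM were found in neurons with fewer than 5 Calca UMIs, so neither gene was particular to CGRP neurons.

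**Figure D1:**
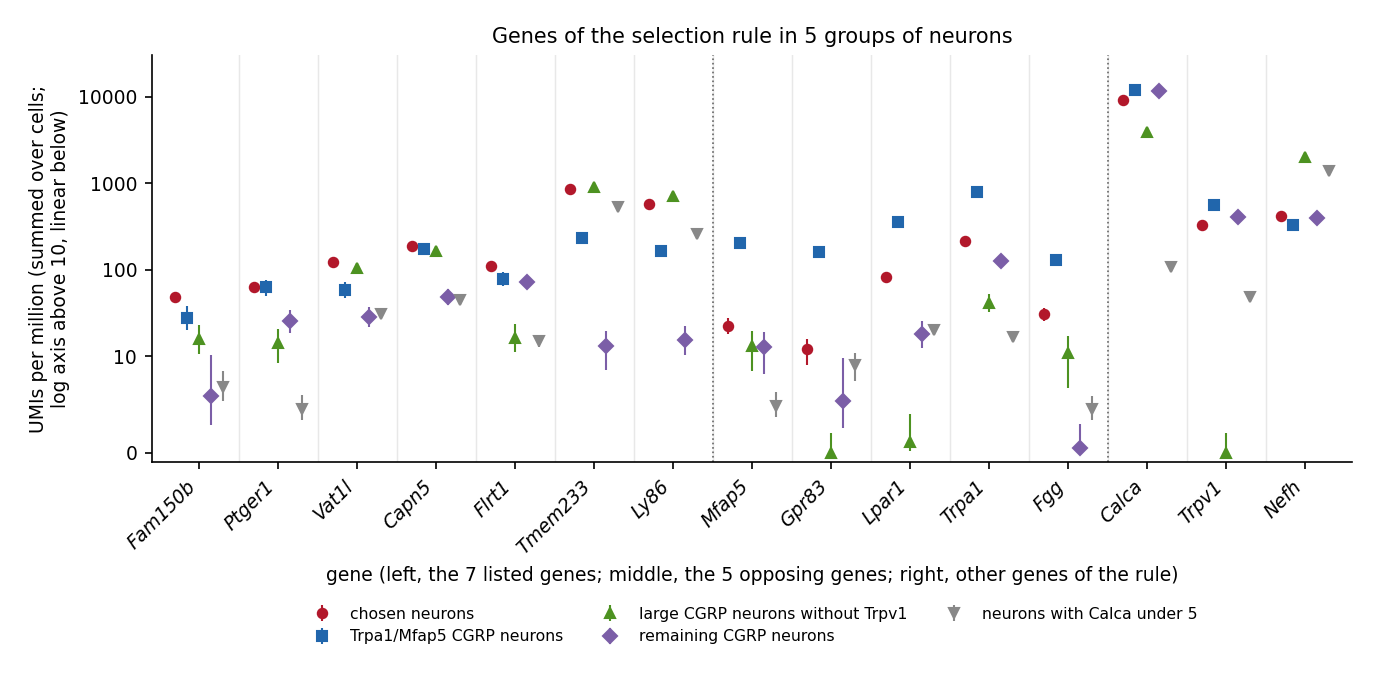
CPM (vertical axis, logarithmic above 10 and linear below) of the 7 genes of the set, the 5 opposing genes, Calca, Trpv1 and Nefh (horizontal axis) in the chosen neurons, the 3 other groups of CGRP neurons and neurons with Calca under 5, with exact Poisson 95% intervals as bars. Fam150b was highest in the chosen neurons (48.8), while Ptger1 was level with the Trpa1/Mfap5 neurons and Tmem233 and Ly86 were no lower in the large ones.

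Calca itself was at 9045 CPM in the chosen neurons, between 3945 in large and 11904 in Trpa1/Mfap5 neurons, with 60.3 in glia. Its count per chosen neuron ran from 5 to 450 with a median of 42.5, and 81 of the 552 had 5 to 9. Trpv1 was at 329 (312 to 347) CPM, below its 555 in Trpa1/Mfap5 and 403 in remaining neurons. It was seen in 70.3% (66.3 to 74.1) of the chosen neurons, and at 1000 UMIs in 31.2%, against 43.1% of Trpa1/Mfap5 and 31.5% of remaining neurons. The large neurons lacked it by the rule, so these shares are a description. Of the chosen neurons, 67 had 5 or more Nefh UMIs together with Trpv1.

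Trpa1, the channel for pungent irritants, counted against a cell and was at 216 (202 to 230.1) CPM, against 792 in the neurons chosen for it and 126 in remaining ones. Gpr83, an orphan receptor gene, was at 12.1 against 162 CPM, and Mfap5, a microfibril protein gene, at 22.6 against 203. Lpar1, a lysophosphatidic acid receptor gene, was at 82.4 against 353 CPM and Fgg, the fibrinogen gamma chain gene, at 30.8 against 129. These ratios follow from the choice of cells.

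On GRCm38, Fam150b (annotated as Alkal2) lies on the plus strand of chromosome 12 at 30884322 to 30893854 and overlaps Acp1, and Ptger1 lies on the plus strand of chromosome 8 at 83666678 to 83672753 and overlaps another coding gene. Capn5 (chromosome 7, 98121559 to 98178274, minus strand) overlaps Omp, and Flrt1 (chromosome 19, 7092001 to 7105729, minus strand) overlaps Macrod1. Vat1l (chromosome 8, 114205612 to 114374071, plus strand), Tmem233 (chromosome 5, 116038755 to 116083244, minus strand) and Ly86 (chromosome 13, 37345208 to 37419036, plus strand) overlap no other coding gene. How reads in overlapping genes were assigned is not given in the sources used here, and the part of reads from these neighbours in the levels of Fam150b, Ptger1, Capn5 and Flrt1 was not tested.

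For a level that a gene did not itself fix, 1 gene of the set was left out and the neurons were chosen again by the other 6. Fam150b was then higher in the neurons chosen without it, by a log2 ratio of 0.79 (0.44 to 1.14), although it was seen at 1000 UMIs in 2.67% of them and 2.21% of the others. Tmem233 was higher by 0.73 (0.65 to 0.80) and Ly86 by 0.59 (0.50 to 0.68), with thinned shares of 32.8% against 13.2% and 23.4% against 11.5%. Vat1l was higher by 0.50 (0.31 to 0.70), with 11.7% against 6.9%. Thus 4 of the 7 genes stayed higher in level when they took no part in the choice, though for Fam150b the shares at equal depth were close. The 7 genes were listed together with earlier results of these data known, and the opposing genes, Nefh and Trpv1 still chose the cells. These ratios are therefore no independent test of the set.

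Ptger1 did not separate from the other CGRP neurons by counting error once it was left out, with a log2 ratio of 0.18 (-0.10 to 0.46) and thinned shares of 6.31% against 5.81%. Capn5 gave 0.13 (-0.03 to 0.28) and Flrt1 0.03 (-0.19 to 0.25). For these 3 genes the interval included 0.

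**Figure D2:**
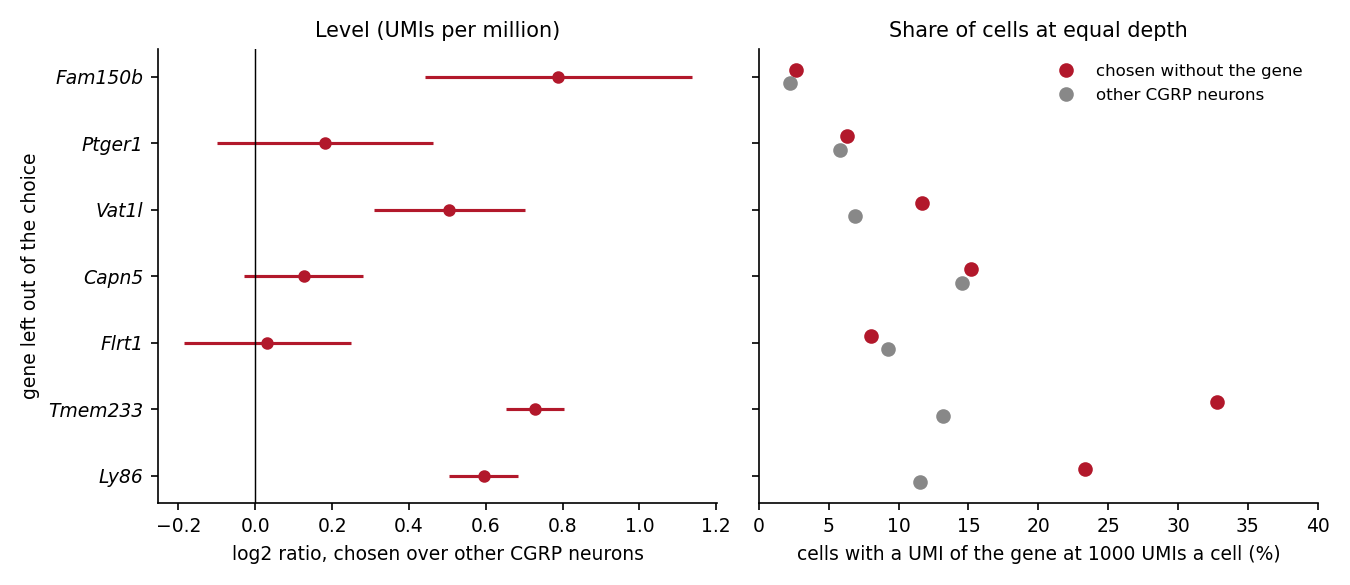
Log2 ratio of each of the 7 genes between neurons chosen without that gene and the other CGRP neurons, with exact conditional binomial 95% intervals (left panel), and the share of cells (%) with a UMI of it at 1000 UMIs a cell (right panel). Fam150b, Tmem233, Ly86 and Vat1l lie above 0 with their whole interval, and the intervals of Ptger1, Capn5 and Flrt1 include 0.

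Pairs of the 7 genes were counted over all 1610 CGRP neurons at 1000 UMIs, where all cells had the same depth. Tmem233 and Ly86 were seen together in 137 neurons, 3.07 times the 44.6 that independent genes would give. Vat1l met Ly86 in 33 neurons against 19.8, whereas Flrt1 met Tmem233 in 14 against 26.8. Fam150b and Ptger1 met in 2 neurons against 2.27 at 1000 UMIs, and in 49 against 30.4 with all UMIs. With all UMIs Flrt1 met Tmem233 in 141 neurons against 130.3, so the direction for that pair turned with depth. These are counts without a test, and Fam150b with Ptger1 was too sparse at 1000 UMIs to read.

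Neurons next to the limits of the rule resembled those inside them at 1 limit and not at another. The 24 chosen neurons with exactly 5 Calca UMIs had 465 CPM of Tac1 and 429.8 of Mrgprd, and the 21 neurons that missed the rule with 4 Calca UMIs had 487 and 559. The 185 chosen neurons with exactly 2 of the 7 genes had 137 CPM of Mrgprd, against 4.26 in the 227 neurons with exactly 1. A further 101 neurons met every condition but had 5 or more Nefh UMIs and no Trpv1 (median 12378 UMIs). These neurons are counted in the large group.

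The chosen neurons lay near each other in the expression of all other genes only in part. Over 20 principal components of 2000 variable genes with every gene of the rule left out, 55.4% of the 15 nearest CGRP neurons of a chosen neuron were themselves chosen, where their share of CGRP neurons was 34.3%. For Trpa1/Mfap5, large and remaining neurons, 23.6%, 33.0% and 23.3% of neighbours were chosen neurons. The chosen neurons were deeper, with a median of 5123.5 UMIs against 2616 in all other CGRP neurons, and with every cell at 1000 UMIs the share of chosen neighbours fell to 45.5%, against the same 34.3%. The share was above 34.3% with and without thinning, by less at equal depth, and other CGRP neurons were mixed among the chosen ones.

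Split by k-means on the same components into 4 clusters, a number set after the data were seen, the chosen neurons fell into clusters of 230, 203, 67 and 52 cells with very different leading genes. Cluster 1 (median 3569.5 UMIs) was led by Racgap1, a GTPase activator gene, the acid-sensing channel gene Asic1 and the potassium channel gene Kcnv1, with 85.9 CPM of Asic1 there and 14.6, 8.2 and 6.58 in clusters 2 to 4. Cluster 2 (median 6172) was led by Ccl21a, a chemokine gene (317 CPM), Dcdc2a, a doublecortin-domain gene (83.8), and Kcnk3, a leak potassium channel gene (114). Cluster 3 (median 10216) was led by Prkcq, the protein kinase C theta gene (274 CPM), the neurturin receptor gene Gfra2 (269) and the beta-alanine receptor gene Mrgprd (641). Cluster 4 (median 4399.5) was led by Crip1, a LIM-domain protein gene (1034 CPM), and Pde1c, a phosphodiesterase gene (418). These genes also defined the clusters and were named after their values were seen, so their levels are a description of the split.

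The genes of the rule took no part in the clustering, and they too differed between the clusters. Fam150b was at 88.1 (73.3 to 105) CPM in cluster 1, 39 (30.2 to 49.5) in cluster 2, 8.2 (3.3 to 16.9) in cluster 3 and 36.2 (18.1 to 64.8) in cluster 4. Ptger1 was at 97.3 (81.7 to 115) CPM in cluster 1, 69.9 (57.9 to 83.5) in cluster 2 and 12.9 (6.43 to 23.1) in cluster 3, and 0 (0 to 12.1) in cluster 4, whose 52 neurons held no Ptger1 UMI. Calca was at 10814 and 12445 CPM in clusters 1 and 2, 5047 in cluster 4 and 708 in cluster 3, whose neurons had a median of 7 Calca UMIs. Fam150b, Ptger1 and Capn5 were thus highest in cluster 1, and cluster 3 had the highest Tmem233 (2268 CPM) and Ly86 (1514) with Calca just above its limit.

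Vat1l was at 196 CPM in cluster 1, 97.2 in cluster 2, 15.2 in cluster 3 and 250.2 in cluster 4. Capn5 was at 312, 132, 90.2 and 227 CPM in that order. Flrt1 was at 139.9 and 147 CPM in clusters 1 and 2 and at 5.86 and 56 in clusters 3 and 4. Tmem233 was at 784 CPM in cluster 1 and 1969 in cluster 4 but at 23.9 in cluster 2. Tmem233, like Ly86 (62.9 CPM), was thus scarce in cluster 2 and plentiful in the other 3 clusters.

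**Figure D3:**
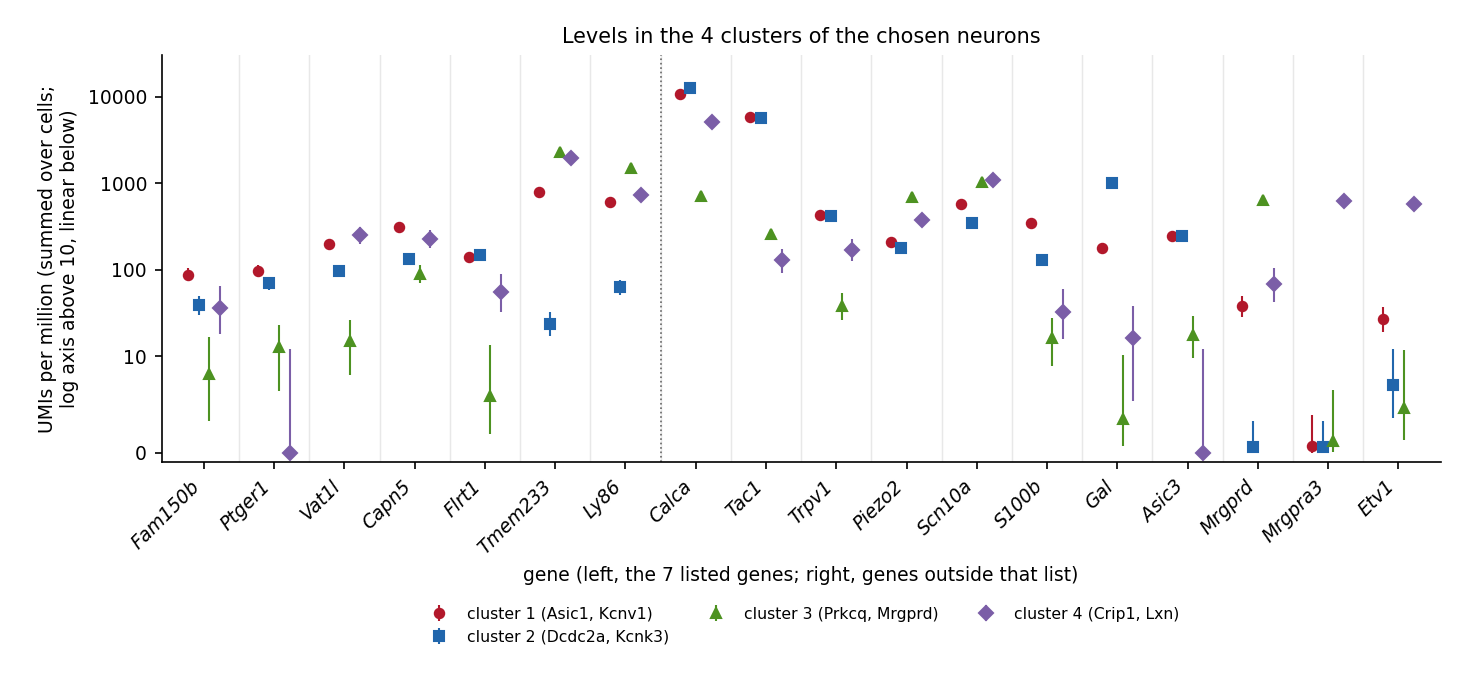
CPM (vertical axis, logarithmic above 10 and linear below) of the 7 genes of the set and of 11 genes outside it (horizontal axis) in the 4 clusters of chosen neurons, with exact Poisson 95% intervals as bars. Ptger1 was at 97.3 in cluster 1 and without a UMI in cluster 4, and Tmem233 was lowest in cluster 2 (23.9).

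The split moved with the number of clusters and with depth. The adjusted Rand index, which is 1 for the same split, was 0.934 with 3 clusters, 0.639 with 5 and 0.553 when each neuron was thinned to 1000 UMIs before clustering. After thinning, 50 of the 52 neurons of cluster 4, 51 of the 67 of cluster 3, 192 of the 203 of cluster 2 and 164 of the 230 of cluster 1 stayed together. Markers of other neuron classes moved with the clusters: 64 chosen neurons (11.6%) held 2 or more of Mrgprd, Lpar3, Prkcq and Agtr1a and 32 held all 4, and Mrgpra3, an itch receptor gene, was at 616 CPM in cluster 4 and at most 1.17 in the other clusters. Cluster 2 held markers of other trigeminal neurons as well, with 204 CPM of Cyp1b1, a cytochrome P450 gene, and 43.7 of Sstr2, a somatostatin receptor gene, against 19.9 and 4.26 in cluster 1 and 2.34 and 0 of Cyp1b1 and 0 and 0 of Sstr2 in clusters 3 and 4. The part of more than 1 cell under 1 barcode in these co-occurrences was not tested. The name CGRP neurons with Fam150b and Ptger1 did not hold for all 4 clusters: Ptger1 was unseen in cluster 4, Calca, Fam150b and Ptger1 were low in cluster 3, and cluster 2 carried other markers, so the group is called here by its rule, the chosen neurons.

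Neurons with and without a Tmem233 UMI had different levels of other genes and lay in different clusters. The 301 neurons with a Tmem233 UMI had 108 CPM of Gal, which encodes the peptide galanin, against 939 in the 251 without, and 3202 against 5588 CPM of Tac1, the substance P precursor gene. Ret, the receptor for GDNF family ligands, was at 490.4 against 228 CPM, and Calca at 6731 against 12099. Those with Tmem233 were 163 neurons of cluster 1, 19 of cluster 2, all 67 of cluster 3 and all 52 of cluster 4. Those without were 67 of cluster 1 and 184 of cluster 2, where Gal was at 1010.2 CPM. No comparison was made within a cluster, so Tmem233 and the clusters cannot be told apart here. The 110 neurons with a Fam150b UMI lay in cluster 1 (62), cluster 2 (35), cluster 3 (6) and cluster 4 (7), and the 181 with Ptger1 in cluster 1 (85), cluster 2 (87) and cluster 3 (9).

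Against all other CGRP neurons together, few genes differed by a factor of 2. Of 10621 genes with at least 20 UMIs to be expected in the chosen neurons, genes of the rule left out, 52 were at least 2-fold higher (0.49%) and 120 at least 2-fold lower (1.13%), together 172 (1.62%), and the median log2 ratio of all 10621 was -0.0039. Against single groups the counts were larger: 495 higher and 290 lower than in Trpa1/Mfap5 neurons (4.69% and 2.75%), 457 and 323 than in large neurons (4.33% and 3.06%), and 449 and 198 than in remaining neurons (4.24% and 1.87%). Only 2 genes were at least 2-fold above each of the 3 groups, and 36 were at least 1.5-fold above each. Of the 52 higher genes, 22 were highest in cluster 3 and 23 in cluster 4, against 4 in cluster 1 and 3 in cluster 2. How many of all 10621 genes were highest in each cluster is not given here, so these counts have no background. Clusters 3 and 4 held 19.9% and 7.09% of the UMIs of the chosen neurons, so their levels carry more counting error. Set singly against all other CGRP neurons, cluster 1 had 36 genes 2-fold higher and 119 lower of 8109 (0.444% and 1.47%) and cluster 2 had 40 and 251 of 8666 (0.462% and 2.9%). Cluster 3 had 315 and 679 of 6570 (4.79% and 10.3%) and cluster 4 had 121 and 252 of 3174 (3.81% and 7.94%). Clusters 3 and 4, with 67 and 52 neurons, thus had larger shares of genes past 2-fold than clusters 1 and 2. These shares are of different sets of genes, and the clusters were split on these same data. The part of counting error in the smaller clusters was not tested. With clusters 1 and 2 alone, 27 genes were at least 2-fold higher than in the other CGRP neurons and 143 at least 2-fold lower. With every neuron given the same weight (the mean of each neuron's own CPM) 215 genes were 2-fold higher and 162 lower, and at 1000 UMIs a neuron 39 and 36 of 5057.

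Of the 15 genes with the highest ratios, Dnase1l3, a DNase of the DNase I family, led with 89 UMIs in the chosen neurons and 23 in all other CGRP neurons, a log2 ratio of 2.20. Etv1, an ETS transcription factor gene, had a log2 ratio of 1.83 (1.45 to 2.22) with 579 CPM in cluster 4 and 27 or less elsewhere, and the cation channel gene Trpc6 one of 1.85 (1.20 to 2.55) with 65.6 and 72.4 CPM in clusters 3 and 4. Otoa, which encodes otoancorin, stood at 1.63 and was highest in cluster 3. Kcnv1 (1.49, 0.95 to 2.05) and Cck (1.48, 0.63 to 2.39), the cholecystokinin gene, were the 2 of the 15 that were highest in cluster 1, at 52.6 and 17.8 CPM.

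The mechanosensitive channel gene Tmem63a (1.66), the ligand gene Wnt2b (1.65), the caveolin gene Cav1 (1.48), the CCN family gene Nov (1.37), the carboxypeptidase gene Cpn1 (1.35), the GPI-anchored protein gene Ly6c1 (1.35) and the ubiquitin ligase gene Trim25 (1.30) were also among the 15. Igfbp7, an insulin-like growth factor binding protein gene, stood at 1.92, but a single cell held 74.6% of its UMIs in the chosen neurons. With clusters 1 and 2 alone the log2 ratio turned to -4.0 for Trpc6, -3.39 for Wnt2b, -1.92 for Cav1 and -0.11 for Cpn1. The high ratios of these 4 genes in the whole group thus came from clusters 3 and 4. In the same setting Etv1 was at 0.08, Tmem63a at 0.12, Nov at 0.63 and Trim25 at 0.73. With 10 or more Calca UMIs Otoa was at 0.60 and Trpc6 at 0.91. With Nefh under 5 in every cell Kcnv1 was at 0.07, Cck at 0.36 and Ly6c1 at 0.63. Ly6c1 was lowest with every cell weighted alike (0.27). It was also under 2-fold with 3 or more genes of the set (0.84), without neurons with markers of other classes (0.73) and with clusters 1 and 2 alone (0.98). Of the genes named here, Dnase1l3 stayed past 2-fold under every setting run, and each of the others fell under it in at least 1.

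The 15 genes with the lowest ratios included Cpne9, a copine gene of other trigeminal neurons (-3.72, -6.05 to -2.09), Angpt4, an angiopoietin gene (7 UMIs against 60), Rasgrp2, a guanine nucleotide exchange factor gene (-2.69), and Foxp2, a forkhead factor gene (-2.59, -4.12 to -1.36). Ntrk3, the neurotrophin-3 receptor gene, was at 4.2 CPM in the chosen and 45.1 in large neurons (-2.39, -3.20 to -1.66), and Scn1a, a sodium channel gene of large fibres, at 9.57 and 82 (-2.09, -2.61 to -1.60). Sema3e (-2.42), Ccnd2 (-2.34), Tceal6 (-2.18), Atp1b2 (-2.13), Kcnh8 (-2.09), Mgst1 (-2.07), Sulf2 (-1.90) and Ntm (-1.89) completed the list with S100a16 (-2.76), 60% of whose UMIs in the chosen neurons came from 1 cell. Of all 120 lower genes, 69 were highest in the large neurons, 26 in Trpa1/Mfap5 and 25 in remaining neurons. The same split of all compared genes is not given here, so these counts too have no background. At 1000 UMIs the log2 ratio of Sulf2 was -0.94, under 2-fold.

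Among 7 neuropeptide genes compared, 1 was at least 2-fold higher (Cck), none was 2-fold lower, and the median log2 ratio was -0.19. The background for this and the later lists is the 0.49% higher and 1.13% lower of all 10621 genes. Tac1 was at 4230.1 (4169 to 4292) CPM in the chosen neurons, 9454 in Trpa1/Mfap5, 6416 in remaining and 521 in large neurons, and within the chosen neurons at 5762 and 5674 in clusters 1 and 2 and 257 and 128 in clusters 3 and 4. Cartpt, the CART peptide gene, was at 1302 CPM and reached 2581 in cluster 2 (721 in cluster 1), and Calcb, which encodes beta-CGRP, was at 707 with 728, 601, 911 and 632 in the 4 clusters. Tac1 and Cartpt were thus highest in clusters 1 and 2, while Calcb was present in all 4 clusters.

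Gal, Adcyap1 and Nmb are named after their values were seen. Gal was at 1010.2 CPM in cluster 2 and 179.7 in cluster 1, and Adcyap1, the PACAP gene, at 894 and 404. Nmb, the neuromedin B gene, was at 543 (521 to 566) CPM against 213, 587 and 226 in Trpa1/Mfap5, large and remaining neurons, and was highest in cluster 3 (1105).

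Transcripts of the CGRP receptor were scarce. Calcrl, the receptor's core subunit, was at 6.07 (3.97 to 8.9) CPM and seen in 4.35% of the chosen neurons, and Ramp1, the partner that gives CGRP selectivity, at 1.4 (0.514 to 3.05) CPM and seen in 1.09%. Ramp2 was at 0.7 CPM, Ramp3 at 3.97 (2.31 to 6.36) with a log2 ratio of -1.25 (-2.14 to -0.43), and Crcp, the receptor component protein gene, at 93.4. Of the 2 genes compared, Ramp3 was at least 2-fold lower and none was higher, with a median log2 ratio of -0.51. The Ramp3 call ended in 4 settings, with ratios of -0.48 at 1000 UMIs, -0.64 with every cell weighted alike, -0.76 without neurons with markers of other classes and -0.80 with clusters 1 and 2 alone. None of 12 granin and peptide-processing genes passed 2-fold (median 0.04): Pcsk1n was at 1349 CPM against 1252 in all other CGRP neurons, Scg2 at 1103 against 1226, Scg5 at 1005 against 949 and Scg3 at 1015 against 713, with 2565 in cluster 3 and 2383 in cluster 4.

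Among prostanoid genes, 5 were compared and none passed 2-fold (median log2 ratio 0.13). Ptgir, the prostacyclin receptor gene, was at 93.4 (84.5 to 103) CPM in the chosen neurons, 91.9 in large, 89 in remaining and 34.5 in Trpa1/Mfap5 neurons, and like Ptger1 it was seen mostly in clusters 1 (115) and 2 (128). Ptger4, the EP4 receptor gene and named after its value was seen, was at 20.8 CPM against 19.9. The synthase genes Ptges3 and Ptges2 were at 258 and 44.4 CPM against 237 and 44.3 in all other CGRP neurons. Ptgir was thus, like Ptger1, low in cluster 3 (2.34), but it was seen in cluster 4 (56).

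The receptors for the Fam150b product were nearly unseen, with 2 UMIs of Alk and 1 of Ltk in all 552 neurons. Ptn and Mdk, genes of the pleiotrophin family of growth factors, were at 142 and 5.84 CPM, and Ptprz1, a phosphatase receptor gene for them, at 6.3. Of the 3 genes of the ALK pathway compared, none passed 2-fold (median 0.50).

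Of 12 TRP channel and partner genes compared, 2 were at least 2-fold higher, Trpc6 among them, none was lower, and the median was 0.18. Trpc6 was at 18.4 (14.6 to 23) CPM in the chosen neurons and 14.3 in large neurons, with no UMI in Trpa1/Mfap5 or remaining neurons. Ano3, an anoctamin gene, was at 294 CPM against 191 with 1104 in cluster 3, and Tmem100, a modulator of Trpa1 and Trpv1, was at 171 against 158 with 183 and 263 in clusters 1 and 2. Trpv1 was at 431 and 419 CPM in clusters 1 and 2, 38.7 in cluster 3 and 171 in cluster 4. Trpv1 and Tmem100 were thus highest in clusters 1 and 2, Trpc6 in clusters 3 and 4, and Ano3 in cluster 3.

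Piezo2, the mechanically gated channel of touch, was at 305 (289 to 322) CPM in the chosen neurons, between 56.8 in Trpa1/Mfap5 and 132 in remaining neurons on one side and 633 in large neurons on the other. It was seen in 49.5% (45.2 to 53.7) of the chosen neurons, and at 1000 UMIs in 19.9% against 13.5% of the other CGRP neurons. The 2 channels shared 181 of the 552 neurons (32.8%, 28.9 to 36.9), close to the 192 that independent genes would give. At 1000 UMIs both were seen in 4.89% (3.25 to 7.04) of the chosen neurons, 0.356% (0.00901 to 1.97) of Trpa1/Mfap5 and 2.02% (1.08 to 3.44) of remaining neurons, and large neurons could hold none by the rule. The 27 chosen neurons with both were not more than the 34.3 that independent genes would give. The rule itself bears on these shares, since 67 neurons with 5 or more Nefh UMIs were taken for their Trpv1 UMI while such neurons without it, rich in Piezo2, were left to the large group, so the shares are a description.

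Trpv1 without Piezo2 was seen in 37.5% (33.4 to 41.7) of the chosen neurons and Piezo2 without Trpv1 in 16.7% (13.7 to 20). Clusters 3 and 4 had the reverse order. In cluster 4 Piezo2 alone was seen in 21 of 52 neurons and Trpv1 alone in 6, and in cluster 3 Piezo2 alone in 40 of its 67 neurons and Trpv1 alone in 2. The Piezo2 level of cluster 3, 692 CPM, exceeded 211, 176 and 379 in clusters 1, 2 and 4. At 1000 UMIs both were seen in 15 neurons of cluster 1, 9 of cluster 2, 2 of cluster 3 and 1 of cluster 4.

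**Figure D4:**
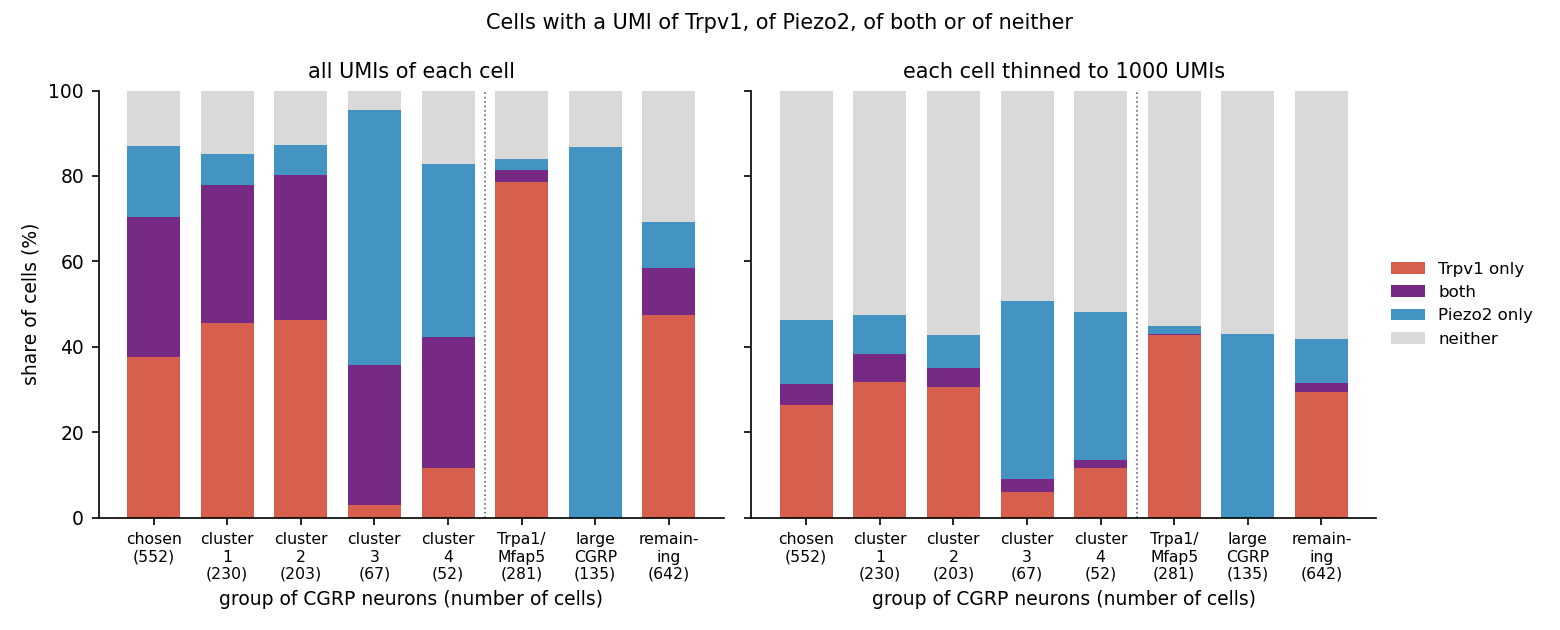
Share of cells (%) with Trpv1 only, Piezo2 only, both or neither in the chosen neurons, their 4 clusters and the other CGRP groups, with all UMIs in 1 panel and at 1000 UMIs per cell in the other. Both genes were seen in 32.8% of the chosen neurons with all UMIs and in 4.89% at 1000 UMIs.

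Of 9 mechanotransduction genes compared, Tmem63a was at least 2-fold higher, Stoml3, a stomatin-like modulator of touch channels, at least 2-fold lower (3.5 against 7.28 CPM), and the median was 0.15. The Stoml3 call ended in 8 settings, with log2 ratios from -0.42 (Nefh under 5 in every cell) to -0.95 (10 or more Calca UMIs). Stoml1, Tmem63b and Tmem150c were at 123, 63 and 59.3 CPM, against 104, 68.2 and 45 in all other CGRP neurons. None of 5 acid- and ATP-gated channel genes passed 2-fold (median 0.07). Asic3, a proton-gated channel gene, was at 245 and 245 CPM in clusters 1 and 2, 17.6 in cluster 3 and 0 (0 to 12.1) in cluster 4, where no UMI was seen, while Asic2 and P2rx3, an ATP receptor gene, were highest in cluster 3 at 112 and 83.2. Asic3 was thus a transcript of clusters 1 and 2, where P2rx3 was lower (27 and 11.6).

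Of 11 sodium channel genes compared, none was 2-fold higher and Scn1a was lower, with a median of -0.32. Scn10a, which encodes the nociceptor channel Nav1.8, was at 611 (588 to 635) CPM with a log2 ratio of 0.63 (0.55 to 0.72), against 212, 649 and 281 in Trpa1/Mfap5, large and remaining neurons. Scn11a, which encodes Nav1.9, was at 549 against 395 CPM (0.48, 0.39 to 0.56), and both genes were highest in clusters 3 and 4. Scn9a, a gene of the rule that encodes Nav1.7, was at 549 against 589 CPM, and the auxiliary subunit gene Scn2b at 105 against 120.2. Scn10a within cluster 1 (571, 532 to 612) and cluster 2 (343, 316 to 372) was also above its level in Trpa1/Mfap5 and remaining neurons.

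Potassium channel genes gave 1 higher and 1 lower of 34 compared (median -0.06). Kcna1, a Shaker channel gene, was lower at 37.1 CPM, against 191 in large neurons but 12.2 and 19.7 in the other 2 groups. Its log2 ratio was under 2-fold with 3 or more genes of the set (-0.94), at 1000 UMIs (-0.95) and with every cell weighted alike (-0.74). Kcnip4 was at 172 against 123 CPM and Kcnt1 at 147 against 104, both led by clusters 3 and 4, while Kcnab2 (251 against 259.6) and Kcnc4 (105 against 106) were level. Kcnk18, the TRESK channel gene and named after its value was seen, was at 55.4 CPM in cluster 1, 1.16 in cluster 2, 44.5 in cluster 3 and 105 in cluster 4. None of 17 HCN and calcium channel genes passed 2-fold (median -0.12): Cacna2d1, the gabapentin target, was at 505 against 550.1 CPM, Cacnb3 at 200.3 against 193, Cacna1b at 186 against 189.8 and Cacna2d2 at 156 against 150.3.

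Among 17 growth factor and cytokine receptor genes, none was 2-fold higher, Ntrk2 and Ntrk3 were lower, and the median was 0.09. Ret was at 377 against 287 CPM with 582 in cluster 3 and 569.5 in cluster 4. Gfra3, the artemin receptor gene, was at 439.7 and 357 CPM in clusters 1 and 2 and at 17.6 and 42.8 in clusters 3 and 4. Gfra1 and Gfra2, named after their values were seen, were instead highest in cluster 4 (313) and cluster 3 (269). The GDNF-family co-receptor genes thus divided by cluster, with Gfra3 in clusters 1 and 2, Gfra2 in cluster 3 and Gfra1 in cluster 4.

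Lifr, a cytokine receptor gene, was at 334 against 314 CPM, and Il6st and Osmr, subunit genes of the interleukin-6 and oncostatin M receptors named after their values were seen, were at 266 against 163 and 22.4 against 12, with Osmr at 115 in cluster 4. None of 17 inhibitory receptor genes passed 2-fold (median -0.25). Gabbr1, Gabbr2 and Adora1 were at 183, 117 and 76.4 CPM against 169.7, 117 and 91.1. Htr1b, a serotonin receptor that triptans act on, was at 38.8 (33.1 to 45.1) against 44.8 CPM, with 35.5 in cluster 1, 67.5 in cluster 2 and no UMI in cluster 3 (0, 0 to 4.32) or cluster 4 (0, 0 to 12.1).

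None of 12 inflammatory and vascular receptor genes passed 2-fold (median 0.07). S1pr3, a sphingosine 1-phosphate receptor gene, was at 206 against 197 CPM with 359.8 in cluster 2 and 5.86 in cluster 3. Mrgprd and the lysophosphatidic acid receptor gene Lpar3 were at 145 and 124 CPM over all chosen neurons against 73.9 and 66.9, and F2rl2, a thrombin receptor gene, at 83.4 against 60.2. Of Mrgprd and Lpar3, clusters 1 and 2 held 38.4 and 0.582, and 35.5 and 12.2 CPM, so these 2 levels in the whole group were mostly those of the 67 neurons of cluster 3.

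Of 20 glutamate and GABA signalling genes compared, none was 2-fold higher and 3 were lower, with a median of -0.20. The lower ones were the AMPA receptor gene Gria3 (4.44 against 14.6 CPM) and the GABA-A receptor genes Gabra3 (23.3 against 54.1) and Gabrg3 (3.5 against 8.46). The Gabra3 call ended in 6 settings, with log2 ratios of -0.56 at 1000 UMIs and -0.80 to -0.998 in the others, and the Gabrg3 call in 3, with -0.49 where Nefh was under 5 in every cell, -0.82 with clusters 1 and 2 alone and -0.89 without markers of other classes. Slc17a6, the vesicular glutamate transporter gene, was at 289.5 against 342 CPM, the kainate receptor gene Grik1 at 232 against 133 with 1023 in cluster 3, the chloride transporter gene Slc12a2 at 78.5 against 71.6 and the NMDA receptor gene Grin1 at 71.5 against 74.9. Chrna6, a nicotinic receptor gene named after its value was seen, was at 50.9 (44.4 to 58.1) CPM against 29.5, 38.5 and 11.2 in Trpa1/Mfap5, large and remaining neurons.

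Among 25 transcription factor genes, Etv1 was at least 2-fold higher, Hopx (99.7 against 264 CPM) and Nfia (12.8 against 28.3) were lower, and the median was 0.03. Hopx and Nfia were highest in large neurons, at 473 and 51.2 CPM, and Hopx was lower in the chosen neurons than in Trpa1/Mfap5 (154) and remaining neurons (142) too. Tshz2, Klf7, Zbtb20 and Ebf1 were at 739, 581, 542 and 279 CPM against 722, 483, 578 and 263. With every cell weighted alike the log2 ratios of Hopx and Nfia were -0.83 and -0.33, so their 2-fold calls ended. At 1000 UMIs they were -0.94 and -0.59, and with clusters 1 and 2 alone -0.99 and -0.80. Nfia was also at -0.83 without neurons with markers of other classes. Pou4f3, a POU-domain factor gene named after its value was seen, was at 211 CPM in cluster 2 and 32, 49.2 and 6.58 in clusters 1, 3 and 4.

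Genes of axon size and cytoskeleton gave 3 lower and none higher of 14 compared (median -0.06), with the glycoprotein gene Thy1 at 92.2 CPM, S100b at 172 and the adhesion gene Mcam at 3.74, against 506, 811 and 13.2 in large neurons. Within the chosen neurons S100b, a gene of myelinated afferents, was at 348 CPM in cluster 1 and 16.4 in cluster 3. Sncg, Stmn2, Map1b and the rule gene Uchl1 were at 7456, 3653, 3226 and 3305 CPM against 6352, 3614, 3475 and 3106. With every cell weighted alike the log2 ratios of Thy1 and S100b were -0.48 and -0.29, so their 2-fold calls ended. At 1000 UMIs they were -0.67 and -0.28, and with clusters 1 and 2 alone -0.76 and -0.60. With 3 or more genes of the set they were -0.97 and -0.63. S100b was also at -0.80 with 10 or more Calca UMIs and at -0.82 without neurons with markers of other classes. The Mcam call ended in 5 settings, with log2 ratios from -0.67 (10 or more Calca UMIs) to -0.98 (without repeated, closely matching or incompletely read barcodes). Nefh, which the rule used, was at 414 CPM in the chosen and 2017 in large neurons.

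Of 20 calcium-binding and G protein signalling genes compared, S100a16 was lower, none was 2-fold higher, and the median was 0.25. Gnas and S100a10 were at 2798 and 1504 CPM against 2829 and 1357, Gnao1 at 1391 against 1101, and Rgs4, a regulator of G protein signalling, at 1202 against 915 with 4428 in cluster 4. Prkca, Plcb3 and Gna14, a protein kinase C, a phospholipase C and a Gq-family gene named after their values were seen, were at 280.2, 175 and 138 CPM against 166, 108 and 87.5, and each was highest in cluster 3.

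**Figure D5:**
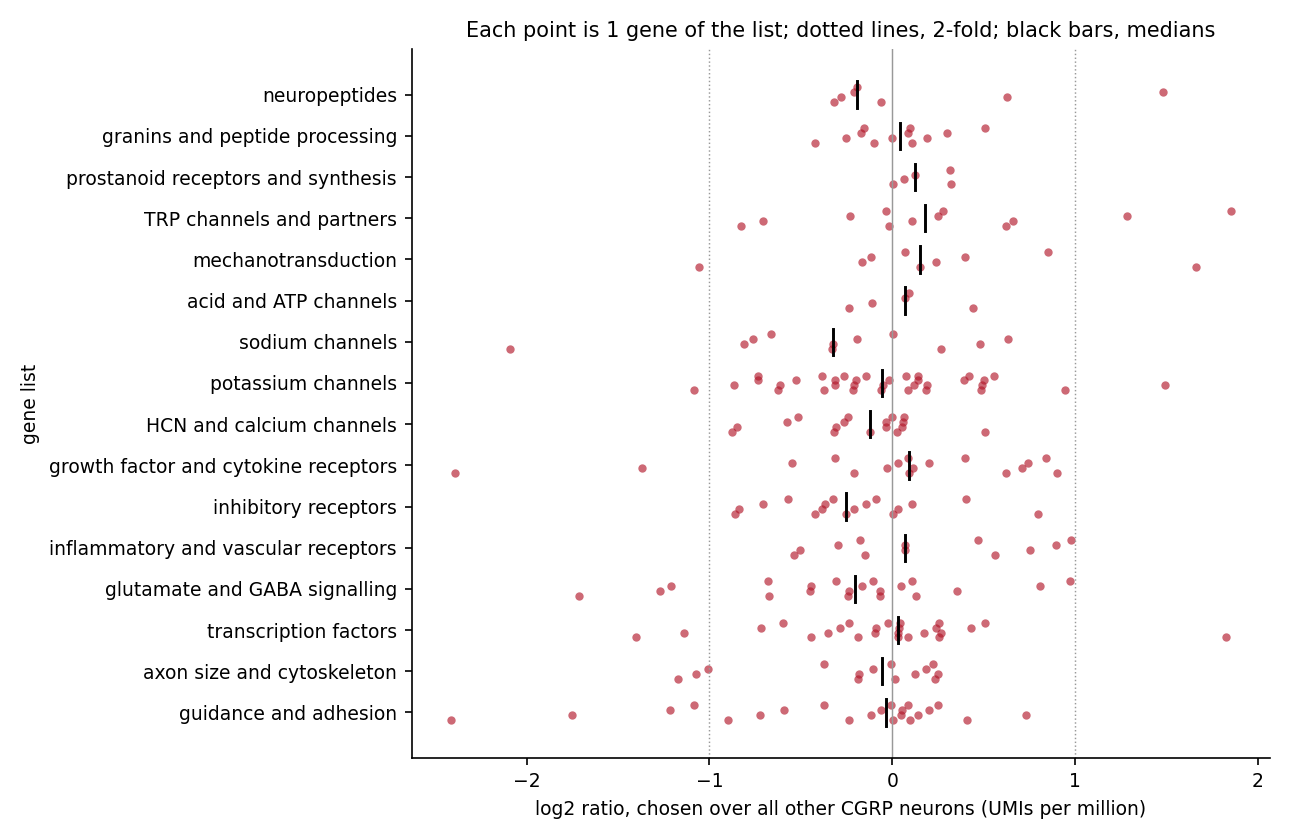
Log2 ratio (horizontal axis) of every compared gene of 16 lists (vertical axis) between the chosen neurons and all other CGRP neurons, 1 point per gene, with the median of each list marked. The median of all 10621 genes is -0.0039, and the points beyond 1 and below -1 are the genes counted as 2-fold higher or lower.

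Markers of other trigeminal neurons gave 1 higher and 3 lower of 16 compared (median -0.34): Prkcq was higher at 55.1 against 27.1 CPM, and Foxp2, Cpne9 and Ntrk2 were lower. Prkcq was at 274 CPM in cluster 3 and at 0, 0.582 and 3.29 in clusters 1, 2 and 4, and its log2 ratio turned to -0.028 with 10 or more Calca UMIs, -0.13 without neurons with markers of other classes and -6.41 with clusters 1 and 2 alone. Mef2c was at 58.8 against 112 CPM and Cyp1b1 at 89 against 88.9. Their summed level was 239 CPM in cluster 1, 543 in cluster 2, 1696 in cluster 3 and 764 in cluster 4, against 490 to 722 in the other CGRP groups. Trpm8, the cold receptor gene and named after its value was seen, was at 8.64 CPM and Sst, the somatostatin gene, had no UMI in the chosen neurons (0, 0 to 0.861).

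Transcripts of red blood cells and of the pituitary were present in the chosen neurons, and those of vascular and immune cells were nearly unseen. Of 7 glial genes compared none passed 2-fold (median 0.06), with Pmp22 at 607, Mbp at 101 and Cnp at 79.2 CPM, and Mbp was at 24799.9 in glia. Red blood cell genes summed to 4398 CPM in the chosen neurons, 5205 in Trpa1/Mfap5, 2556 in large and 9541 in remaining neurons. Of 4 such genes compared none passed 2-fold (median -0.44), with Hbb-bs at 2951 CPM, Hba-a1 at 991, Hbb-bt at 439.9 and Alas2 at 12.4. Gh, the pituitary growth hormone gene, was seen in 55.3% of the chosen neurons and 49.4% of glia at 547 CPM, and of 4 pituitary genes compared Pomc was lower (13.3 against 42.1 CPM) and none higher (median -0.30), with Prl, Cga and Tshb at 34.8, 4.67 and 1.17. Vascular and immune markers summed to 2.57 and 1.4 CPM with no gene above the floor of the comparison, fibroblast and mural markers to 257 with 1 gene compared (-0.08), and olfactory markers to 28 with Stoml3 lower of 3 compared (median -0.47). The part of these transcripts in the levels above was not tested.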

How the data were processed

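Single-cell RNA of trigeminal ganglia was measured by Drop-seq. The authors deposited a table of counts, unique transcripts (UMIs) of 21536 genes in 6997 barcodes, not normalised, with no barcode under 1000 transcripts and all 9 runs pooled. The submitters' processing notes name bcl2fastq 2.17, STAR 2.5.3a, Seurat 1.4.0.16 and mm10; the annotation, the counting tool and its use of strand are not given in the sources used here. The 552 chosen neurons were picked by the rule in the text, and the rule, the members and the gene lists were chosen with earlier results of these data known. Glia had 2 or more glial genes and at most 1 neuronal gene.

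UMIs were summed over the cells of a group and divided by the group's total (CPM). Each gene with 20 or more expected UMIs in the chosen neurons was compared with the other CGRP neurons by its log2 ratio, and 2-fold was the call, because cells of 1 pooled sample are not replicates and allow no test. The likelihood ratio test over cells in the study's methods was therefore not used. The fold step was tested on simulated data. Neighbours and k-means clusters (20 starts) were computed on log-normalised values. No doublet caller was run, and an alternative left out neurons with 2 or more UMIs of markers of other classes. Named are all genes of the rule, the 2-fold genes of each list with up to 4 further genes of most UMIs, and the 15 highest and 15 lowest ratios; some of these genes are not reported here. Of the listed genes, 3 are not in the table. Positions are from GENCODE M21 on GRCm38. Python 3.11.15, NumPy 2.4.6, SciPy 1.17.1 and scikit-learn 1.9.0 were used.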

Additional observations from a re-analysis of the deposited data

How the results depend on the processing

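The number of chosen neurons (552) became 367 with 3 or more genes of the set, 471 with 10 or more Calca UMIs, 603 with 3 or more, 485 with Nefh under 5 in every cell, 449 without neurons with markers of other classes and 499 without barcodes listed more than once, ending in an unread base or sharing their first 11 bases. Genes at least 2-fold higher (52) became 215 with every cell weighted alike, 1705 of 17961 without the filter on low counts and 27 with clusters 1 and 2 alone. Genes at least 2-fold lower (120) became 77 without neurons with markers of other classes, 36 of 5057 at 1000 UMIs and 2499 without the filter. The share of neighbours that were chosen (55.4%, with 34.3% of CGRP neurons chosen) was 47.2% (22.8%) with 3 or more genes of the set, 53.1% (32.9%) with 10 or more Calca UMIs, 50.3% (30.1%) with Nefh under 5, 51.0% (31.0%) without markers of other classes, 45.5% at 1000 UMIs, 53.4% with 30 neighbours, 51.6% with 10 components and 48.3% (29.0%) with clusters 1 and 2 alone.

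For 47 named genes past 2-fold, 497 of 508 recomputed log2 ratios kept their direction, but 77 of these were under 2-fold: 16 with clusters 1 and 2 alone, 12 with cells weighted alike, 11 at 1000 UMIs, 9 with 3 or more genes of the set, 9 without markers of other classes, and 7 or fewer under each other setting. The 11 that turned were those of Prkcq (-0.028 with 10 or more Calca UMIs, -0.13 without markers of other classes, -6.41 with clusters 1 and 2 alone), Igfbp7 (-1.38 with Nefh under 5, -0.10 without markers of other classes, -0.080 with cells weighted alike), Cpn1 (-1.06 at 1000 UMIs, -0.11 with clusters 1 and 2) and, with clusters 1 and 2, Trpc6 (-4.0), Wnt2b (-3.39) and Cav1 (-1.92). For the other 123 named genes, 173 of 1327 ratios changed sign. With clusters 1 and 2 alone the neurons of clusters 3 and 4 are left out by construction; for the other settings the cause was not tested. Clusters 1 and 2 alone, the barcode filter, 3 or 5 clusters and thinned clustering were chosen after seeing the data. No paired analysis was possible because the barcodes name no run, and leaving out each run in turn was not run for the same reason. Depth limits shares of sparse genes: at 1000 UMIs Fam150b was seen in 4.71% of the chosen neurons.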

Other observations

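Guidance and adhesion genes gave 4 lower and none higher of 22 compared (median log2 ratio -0.03). Of all 10621 genes compared, 1.13% were lower and 0.49% higher. The lower ones were the semaphorin genes Sema3e (1.4 against 7.47 CPM in all other CGRP neurons) and Sema5a (22.2 against 47), the cadherin gene Cdh8 (18.9 against 43.9) and Lypd1, a GPI-anchored modulator of nicotinic receptors (2.8 against 9.44). The Sema5a call ended in 6 settings, with log2 ratios from -0.66 (clusters 1 and 2 alone) to -0.97 (3 or more genes of the set). Sema5a and Lypd1 were highest in large neurons (98.5 and 24.8 CPM), and Cdh8 in Trpa1/Mfap5 neurons (72.6). Plxnc1, a plexin gene, was at 235 (221 to 250.1) CPM against 142, with 588 in cluster 3, 566 in cluster 4 and 133 and 85 in clusters 1 and 2. L1cam, Robo2 and Pcdh17 were at 376, 183 and 124 CPM against 354, 215 and 124, and Pcdh17, a protocadherin gene, was at 196 in cluster 1 and 1.17 in cluster 3.

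Immediate early and injury genes gave 1 higher and none lower of 11 compared (median -0.05). Fosl2 was higher at 16.1 (12.5 to 20.4) CPM against 7.87, but its log2 ratio was under 2-fold in 4 settings: 0.63 with Nefh under 5 in every cell, 0.93 without repeated, closely matching or incompletely read barcodes, 0.97 with 3 or more genes of the set and 0.98 with a higher minimum of genes per cell. Jun, Fos, Atf3 and Fosb were at 752, 639.8, 252 and 201 CPM in the chosen neurons and 331, 290.1, 121 and 78.2 in large neurons. The list summed to 2527 CPM in the chosen, 3589 in Trpa1/Mfap5, 3384 in remaining and 1182 in large neurons, so the chosen neurons lay between the large neurons and the other two groups. Within the chosen neurons Jun was at 1077 CPM in cluster 2 and 217 in cluster 4.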
